A study of Homo sapiens with 8 samples.

Results

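22RV1 cells overexpressing PAGE4 were compared with 22RV1 cells carrying the empty vector in 2 pairs of RNA-seq libraries, 1 pair treated with PBS and 1 pair treated with H2O2. 22RV1 is an established human prostate cancer cell line with luminal features. Its 4 libraries were taken by their labels, PAGE4 or vector within each treatment, out of 8 libraries in the series, and the others come from DU145, another prostate cancer line. All cells carried a doxycycline-inducible lentiviral vector, either empty or with the open reading frame of PAGE4 behind an HA tag, were selected with puromycin and received doxycycline. They were then kept for 12 h with PBS or with 200 mM H2O2, the dose given by the labels. Each construct was 1 transduced and selected pool of cells, and each condition has 1 library. A difference between the pools that PAGE4 did not cause therefore cannot be told apart from an effect of PAGE4. The p-values below weigh the mean difference of the 2 pairs against a spread. That spread is estimated from the disagreement of the pairs and shared in part across genes. It holds no spread between pools or repeated cultures, and a small p-value does not show that the pairs agree. In bulk RNA, fewer cells of a type and less RNA per cell cannot be told apart either.

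PAGE4 is a cancer/testis antigen of the PAGE and GAGE family, encoded on the X chromosome and found in the normal and diseased prostate. It is an intrinsically disordered protein that is phosphorylated by the kinases HIPK1 and CLK2 and that acts on c-Jun, a subunit of the transcription factor AP-1. AP-1 is built from FOS and JUN family proteins and responds to MAPK cascades, which carry signals from growth factor receptors and from stresses such as H2O2 to the nucleus. The comparison asks which genes and pathways differ between PAGE4 cells and vector cells in both treatments.

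The total counts were between 25482984 and 43310401 per library, and the PAGE4 library with H2O2 was the shallowest. The targeted gene followed the labels. PAGE4, at chrX:49829260-49834264 of GRCh38, had 1 read with PBS and 0 with H2O2 in vector cells, against 1489 and 1179 in PAGE4 cells. Against a floor of 3 reads, its normalized count with H2O2 was at least 536-fold higher in PAGE4 cells, and with PBS, where vector cells had a single read, the ratio was 1683 with a 95% counting interval from 302 to 66502. Intervals and floors cover counting error only. Genes that mark 22RV1 cells did not move in one direction: of 19 such genes tested, 5 passed the test as higher and 2 as lower in PAGE4 cells. Both shares were above the 3.47% and 3.16% of all genes tested. The median log2 difference of this list was -0.15 in the PBS pair and 0.27 in the H2O2 pair. FOXA1, which did not pass, had 16337 and 14613 normalized counts with PBS in the vector and PAGE4 libraries. Of 10 fibroblast markers, 2 were counted well enough to test, and POSTN had 0 reads in all 4 libraries. The summed normalized count of the 10 was 491 with PBS and 821 with H2O2 in vector cells, and 538 and 1050 in PAGE4 cells.

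A gene was tested when its mean count over the 4 libraries, after division by DESeq2 size factors (the normalized count), was at least 50, which 14609 of 58828 genes reached. The test was edgeR's quasi-likelihood test of the construct with the treatment as a block, with Benjamini-Hochberg adjusted p under 0.05. It called 969 genes (6.63% of those tested), 507 higher (3.47%) and 462 lower (3.16%) in PAGE4 cells. The shares of higher and lower genes are the background for the counts of each gene list below. The study's fold change limit of 1.5 was passed in the same direction in both pairs by 501 genes (3.43%), 233 higher (1.59%) and 268 lower (1.83%), and in opposite directions by 63. Both rules together left 374 genes (2.56%), called DEGs here, of which 179 were higher (1.23% of genes tested) and 195 lower (1.33%) in PAGE4 cells. GENCODE lists 320 of the DEGs as protein-coding and 9 as long noncoding RNAs, and 39 had a symbol it does not use. The DEGs changed by more than 4-fold in both pairs numbered 18 higher and 23 lower. Over all genes tested, the median log2 difference of PAGE4 minus vector was 0.032 with PBS and 0.013 with H2O2, and no autosome or X chromosome had a median beyond -0.086 or 0.077. The calls need the treatment block: in edgeR without it 0 genes passed, with 337 at an unadjusted p under 0.05, and DESeq2's Wald test called 433 genes, all among those of edgeR.

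**Figure D1:**
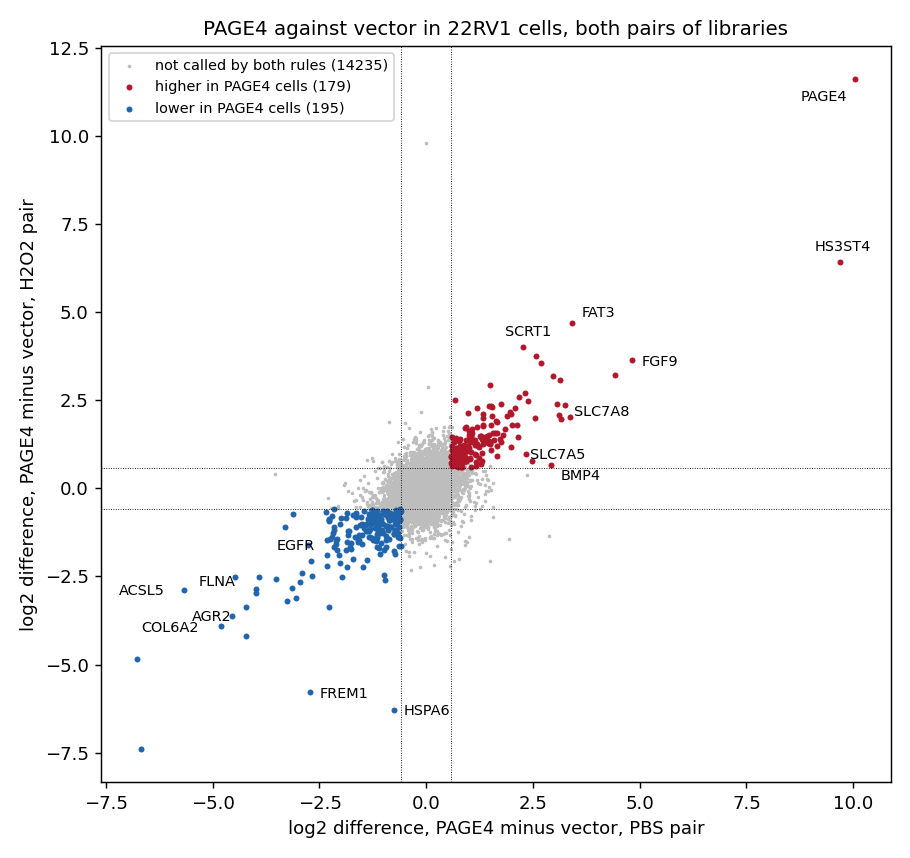
Log2 difference of PAGE4 minus vector cells in the PBS pair (horizontal) and in the H2O2 pair (vertical) for the 14609 genes tested in 22RV1 cells, with dotted lines at 1.5-fold. Red points are the 179 higher and blue points the 195 lower DEGs. FLNA and COL6A2 lie far from 0 in both pairs, while HSPA6 lies far from 0 with H2O2 alone.

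The 12 lowest DEGs whose symbols GENCODE lists as protein-coding included genes of secretion, matrix and the cytoskeleton. Where a pair of values is given for a gene, the first is with PBS and the second with H2O2. AGR2 encodes a protein disulfide isomerase of the secretory pathway of luminal and mucous cells, and had normalized counts of 3302 and 3213 in vector cells and 178 and 311 in PAGE4 cells. Both PAGE4 libraries were thus more than 10-fold below both vector libraries (edgeR log2 difference -3.81, SE 0.15, adjusted p = 4.54e-19). COL6A2, a chain of collagen VI, fell from 302 to 10.2 with PBS and from 324 to 21.1 with H2O2. SNAI2, the Slug transcription factor of epithelial to mesenchymal transition, fell from 345 to 21.4 and from 252 to 31.6. For both genes the vector libraries were close to each other and the PAGE4 libraries were at least 7 times lower. KCNAB2, a potassium channel subunit, had 4574 and 1095 in vector cells and 301 and 189.5 in PAGE4 cells, and REG4, a secreted lectin of intestinal cells, had 229 and 184 in vector cells and 27.0 and 21.1 in PAGE4 cells. Other low genes were ACSL5, an acyl-CoA synthetase, FREM1, a basement membrane protein, KCNH5, a potassium channel, SERTAD4, and the heat shock gene HSPA6. FREM1 had 0 reads in PAGE4 cells with H2O2, where it was at least 6.84-fold lower than in vector cells. In the fit of all 8 libraries without the PBS pair, FREM1 no longer passed (edgeR adjusted p = 0.0691). The values below without 1 pair come from that fit, in which the remaining 22RV1 pair is assumed to vary like the DU145 pairs.

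**Figure D2:**
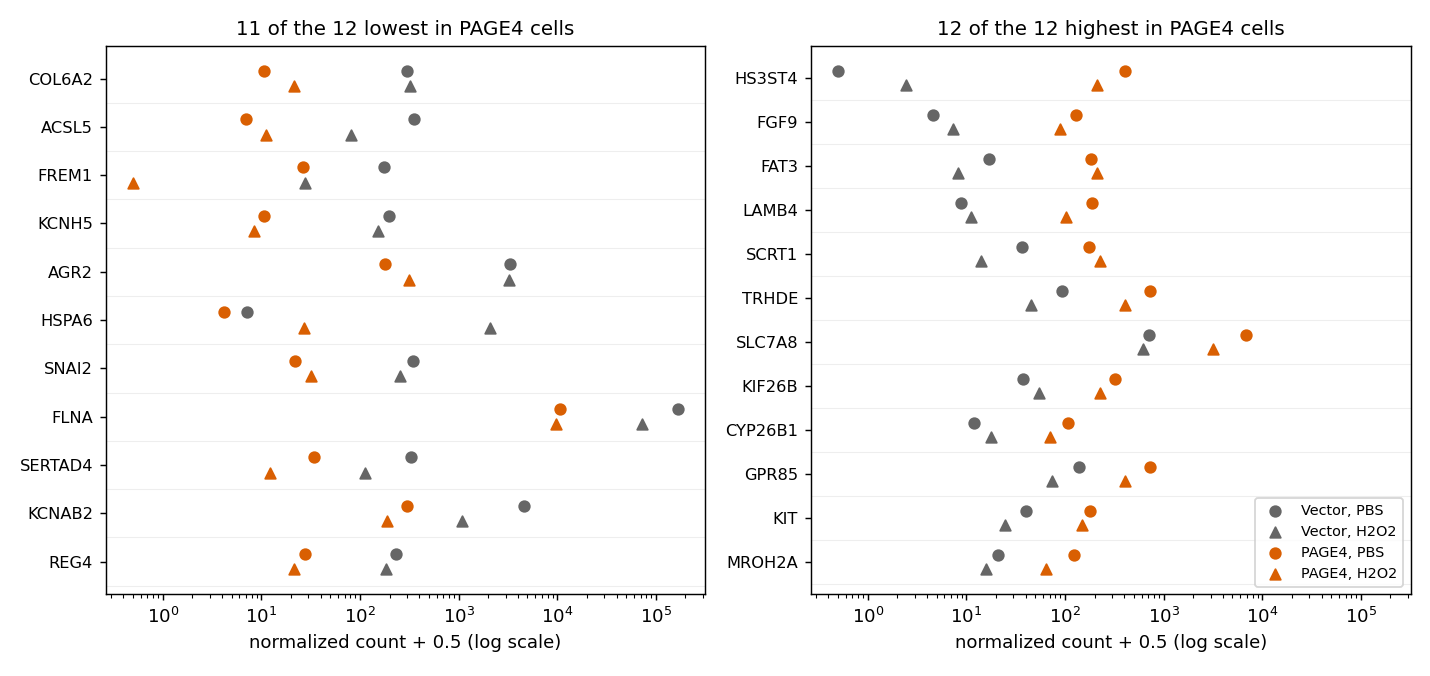
Normalized counts plus 0.5 on a log axis for 11 of the 12 lowest and for the 12 highest DEGs listed as protein-coding in 22RV1 cells, 1 point per library (grey, vector; orange, PAGE4; circles, PBS; triangles, H2O2). Every gene but HSPA6 and FREM1 has both orange points on one side of both grey points with a wide gap, and FREM1 in PAGE4 cells with PBS lies at the level of vector cells with H2O2.

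The 12 highest DEGs whose symbols GENCODE lists as protein-coding included growth factor, retinoid and transport genes. MFSD4 and HMP19, whose symbols had no match there, had log2 differences of 3.14 and 3.07 and of 2.68 and 3.57 and would stand among them. Both were named after their values were seen. HS3ST4, a heparan sulfate sulfotransferase, had 0 and 2 reads in the vector libraries, against 441 and 159 in the PAGE4 libraries. Its normalized count with PBS was at least 166-fold higher in PAGE4 cells, and with H2O2 the ratio was 109, with a counting interval from 29.6 to 904. FGF9, a growth factor of the FGF family, rose from 4.12 to 130.4 normalized counts with PBS and from 6.75 to 89.5 with H2O2. SLC7A8, the LAT2 transporter of neutral amino acids, was the best counted of the 12, with 717 with PBS and 614 with H2O2 in vector cells, and 6814 and 3152 in PAGE4 cells. The PAGE4 libraries of SLC7A8 stood 9.50-fold and 5.13-fold above their vector libraries (edgeR log2 difference 2.80, SE 0.14, adjusted p = 5.23e-17). KIT, the receptor of stem cell factor, had 39.6 and 24.1 in vector cells and 179.7 and 149 in PAGE4 cells. CYP26B1, an enzyme that breaks down retinoic acid, had 11.5 and 17.4 in vector cells and 107 and 69.8 in PAGE4 cells. TRHDE, a peptidase that degrades thyrotropin-releasing hormone, had 93.1 and 44.4 in vector cells and 733 and 409 in PAGE4 cells, and the antisense entry TRHDE-AS1 inside it rose in both pairs as well (log2 2.30 and 2.70). How reads of the 2 strands were assigned is not given in the sources used here, so these 2 entries cannot be separated. FAT3, a large cadherin, LAMB4, a laminin chain, SCRT1, a neural transcriptional repressor, KIF26B, a kinesin, GPR85, an orphan receptor of the brain, and MROH2A were the other matched genes, with log2 differences between 2.00 and 4.70 in either pair. MROH2A did not pass without the PBS pair in the fit of all 8 libraries (edgeR adjusted p = 0.150).

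FLNA, which encodes the actin cross-linking protein filamin A, was by far the most abundant of the low genes. Its normalized count was 168871 with PBS and 71722 with H2O2 in vector cells, and 10707 and 9840.3 in PAGE4 cells. It took 0.473% and 0.216% of all counts in the vector libraries, and 0.0293% and 0.0293% in the PAGE4 libraries. The PAGE4 libraries were alike and lay 15.8-fold and 7.29-fold below vector cells (edgeR log2 difference -3.44, SE 0.15, adjusted p = 1.18e-18). FLNA lies at chrX:154348524-154374634 on the minus strand, and 15 other tested genes lie within 300 kb of it. Of these, EMD, the gene of the nuclear membrane protein emerin and the neighbour of FLNA, fell too, with log2 differences of -0.75 in the PBS pair and -0.51 in the H2O2 pair (edgeR adjusted p = 1.56e-05), and was singled out after its values were seen. The other 14 neighbours had log2 differences between -0.42 and 0.22 in the pairs, and none of them passed the edgeR test. Of 66 tested genes of actin filaments and focal adhesions, 8 fell and 3 rose, against 3.16% and 3.47% of all genes. The median log2 difference of this list was -0.016 in the PBS pair and -0.10 in the H2O2 pair. FLNC, which encodes the filamin of muscle, went the other way, with 708 and 1324 in vector cells and 1117 and 2440 in PAGE4 cells (edgeR adjusted p = 4.55e-05), and ACTB had 141919 and 139986 in vector cells and 122710 and 123231 in PAGE4 cells and did not pass (edgeR adjusted p = 0.171).

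**Figure D3:**
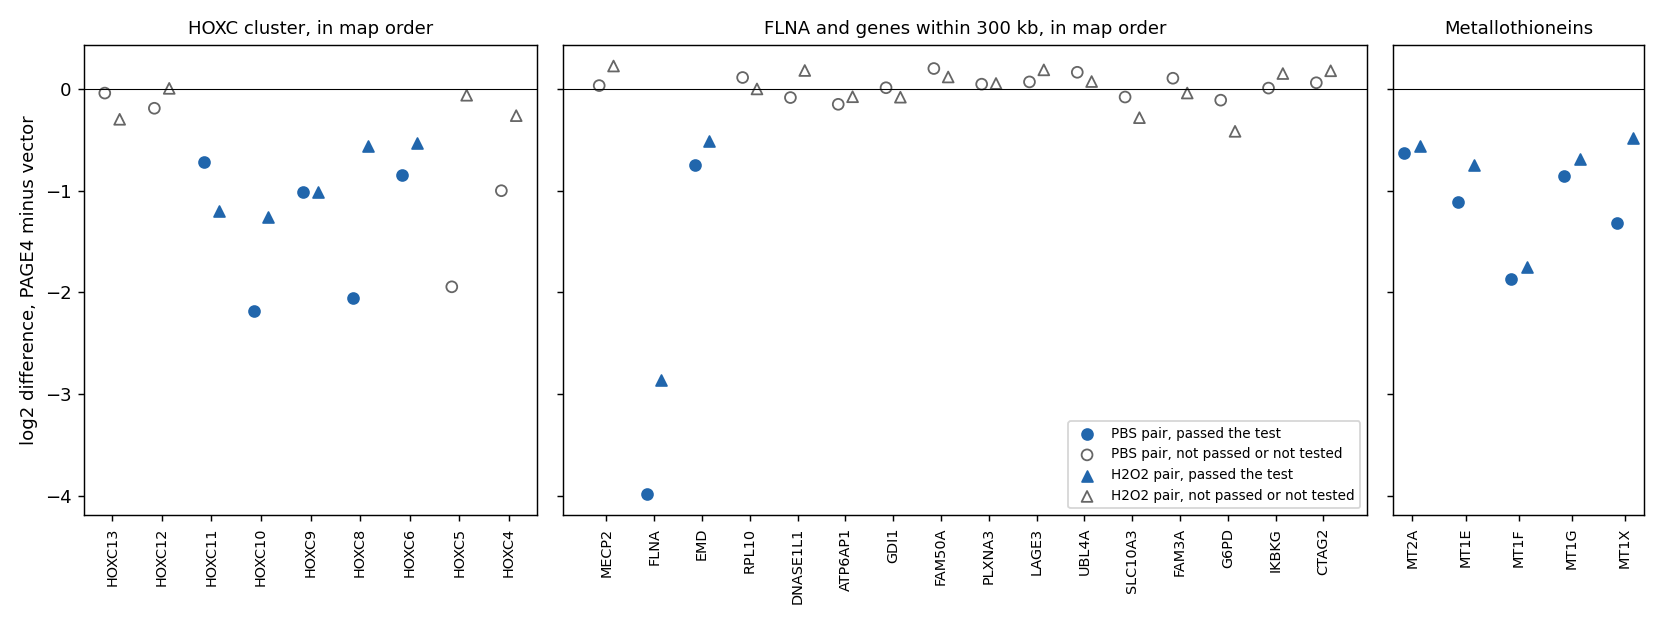
Log2 difference of PAGE4 minus vector in the PBS pair (circles) and the H2O2 pair (triangles) for the HOXC cluster and the FLNA region in map order and for 5 metallothionein genes. Filled blue symbols passed the edgeR test and open symbols did not or were not tested. FLNA stands apart from its neighbours, and the low HOXC genes run from HOXC11 to HOXC6.

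EGFR, the receptor of epidermal growth factor, was lower in PAGE4 cells in both treatments. Its normalized count was 7365 with PBS and 4611 with H2O2 in vector cells, and 1703 and 1531 in PAGE4 cells. The PAGE4 libraries were 4.32-fold and 3.01-fold below vector cells and close to each other (edgeR log2 difference -1.88, SE 0.11, adjusted p = 6.25e-15). Its ligands AREG and HBEGF passed as lower in edgeR and not in DESeq2's Wald test (adjusted p = 0.0718 and 0.108). AREG, amphiregulin, had log2 differences of -1.64 in the PBS pair and -0.80 in the H2O2 pair (edgeR adjusted p = 0.0102), and HBEGF, heparin-binding EGF, had -0.33 in the PBS pair and -1.43 in the H2O2 pair (edgeR adjusted p = 0.00685). Without the H2O2 pair HBEGF did not pass (edgeR adjusted p = 0.555). ERBB3, a partner receptor that was singled out after its values were seen, rose with log2 differences of 0.40 and 0.45, while ERBB2 had -0.35 and -0.12 and did not pass (edgeR adjusted p = 0.112). Of 12 tested genes of the EGFR family, 5 fell and 1 rose. EGFR is also on a list of 22 genes that mark DU145 cells. On that list 13 genes were tested, of which EGFR and GPRC5A fell and LGALS1 and KRT7 rose in PAGE4 cells. IL6 had 0 reads in all 4 libraries, PLAU and KRT5 had at most 4, and the summed normalized count of the list was 20006 and 20735 in vector cells and 16509 and 19369 in PAGE4 cells.

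Among other receptors at the cell surface, S1PR3, a receptor of sphingosine-1-phosphate, fell in both pairs. It had normalized counts of 307 and 405 in vector cells and 34.5 and 56.6 in PAGE4 cells (edgeR log2 difference -3.01, SE 0.28, adjusted p = 5.89e-10). Of 9 tested receptors of lysophospholipids and proteases, F2RL1, the protease-activated receptor PAR2, fell as well, with log2 differences of -0.34 and -0.69, and did not pass without the H2O2 pair (edgeR adjusted p = 0.163). S1PR5 and the lysophosphatidic acid receptor LPAR3 rose, LPAR3 from 1600.3 to 2556 and from 1034 to 2004 normalized counts. S1PR5 did not pass without the H2O2 pair (edgeR adjusted p = 0.0788). EFNB2, the membrane-bound ligand ephrin-B2, and EPHB2, a receptor that binds it, fell together. EFNB2 had 1229 and 1087 in vector cells and 243 and 289.5 in PAGE4 cells, and EPHB2 had 184 and 149 in vector cells and 57.7 and 56.6 in PAGE4 cells. For both genes the 2 PAGE4 libraries differed little from each other and lay below both vector libraries.

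In the MAPK cascade, 2 of 39 tested kinases rose and 2 fell, close to the shares over all genes (3.47% higher and 3.16% lower). MAP2K1, the MEK1 kinase that activates ERK, had normalized counts of 3170.2 and 3012 in vector cells and 1584 and 1829 in PAGE4 cells, and RPS6KA2, the ERK substrate kinase RSK3, had 266 and 232 in vector cells and 61.5 and 82.9 in PAGE4 cells. Both were lower in PAGE4 cells in both pairs, with edgeR adjusted p = 3.79e-07 and 2.68e-05. MAPK11 and MAPK13, which encode the p38 kinases beta and delta, were higher, with log2 differences of 0.43 and 0.59 and of 0.41 and 0.94. Neither passed without the H2O2 pair (edgeR adjusted p = 0.0820 and 0.0661). Of 20 tested feedback genes of the cascade, SPRY4 rose from 1333 to 3245 and from 1710.4 to 2769, and 3 genes fell, among them the phosphatase gene DUSP4 (log2 -0.51 and -0.42, edgeR adjusted p = 0.00205) and SPRY1, which fell from 316 to 157 and from 255 to 163. SPRY1 did not pass without the PBS pair (edgeR adjusted p = 0.201). Of the 7 tested kinases that act on PAGE4 or are related to them, HIPK2 fell with log2 differences of -0.70 and -0.51 (edgeR adjusted p = 4.49e-06). HIPK1, with -0.071 and -0.21, and CLK2, with 0.34 and 0.13, did not pass (edgeR adjusted p = 0.398 and 0.213).

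Genes of AP-1 and of the early response to growth factors and stress were lower in PAGE4 cells mainly in the H2O2 pair. FOSL1, a FOS family member, had normalized counts of 24.7 with PBS and 1219.7 with H2O2 in vector cells, and 12.1 and 222 in PAGE4 cells. FOS had 292 and 2214 in vector cells and 223 and 817 in PAGE4 cells, and FOSB had 133 and 1691 in vector cells and 121 and 357 in PAGE4 cells. With PBS the 2 libraries of FOS and FOSB lay within a factor of 1.5 of each other, and with H2O2 the PAGE4 library had 2.71-fold less FOS and 4.74-fold less FOSB. EGR1, an early response transcription factor, had log2 differences of 0.11 in the PBS pair and -1.37 in the H2O2 pair. Without the H2O2 pair none of these 4 genes passed in the fit of all 8 libraries (edgeR adjusted p = 0.214 for FOSL1, 0.341 for FOS, 0.889 for FOSB and 0.868 for EGR1, whose log2 difference was then 0.081). Whether the pairs differ cannot be tested within 22RV1 cells, since each has 1 library per construct. MAF, also a basic leucine zipper factor, fell mainly with PBS (log2 -2.24 and -0.55) and did not pass without that pair (edgeR adjusted p = 0.697). JUND rose with log2 differences of 0.49 and 0.20, passed narrowly (edgeR adjusted p = 0.0434) and was singled out after its values were seen. It did not pass without the PBS pair (edgeR adjusted p = 0.361) or in the fit of all 8 libraries (edgeR adjusted p = 0.0506). In all, 5 of 15 tested AP-1 genes fell and 1 rose, and 5 of 19 early response genes fell and 1 rose, where 3.16% of all genes fell and 3.47% rose. IER5L was an early response gene that fell alike in both pairs, from 1745 to 489 and from 2618 to 1049, while KLF9, a factor induced by steroid hormones, rose from 924 to 1483 and from 569.8 to 919.

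Matrix genes split in direction. Of 39 tested collagen, laminin and other matrix genes, 11 fell and 4 rose in PAGE4 cells, and the median log2 difference was -0.25 in the PBS pair and -0.11 in the H2O2 pair. Beside COL6A2, the genes that fell included LAMA3, a chain of laminin-332 (log2 -1.41 and -1.01), HSPG2, the proteoglycan perlecan (log2 -1.14 and -1.30), and LUM, the proteoglycan lumican (log2 -1.86 and -1.53). LUM did not pass when either pair was left out (edgeR adjusted p = 0.294 without the PBS pair and 0.0507 without the H2O2 pair). TNC, the glycoprotein tenascin C, rose with log2 differences of 0.93 and 1.05 and COL5A1, a chain of collagen V, with 0.95 and 1.20, and both were picked with their values known. COL5A1 did not pass when either pair was left out (edgeR adjusted p = 0.185 without the PBS pair and 0.507 without the H2O2 pair). Of 17 proteases of the matrix and their inhibitors, 4 fell and none rose. TIMP2, an inhibitor of matrix metalloproteinases, had 76.6 and 87.7 in vector cells and 27.0 and 18.4 in PAGE4 cells, and ADAMTS1, a protease that cuts proteoglycans, had 1010.3 and 1242 in vector cells and 575 and 579 in PAGE4 cells. MMP10, stromelysin 2, had 471 normalized counts in vector cells and 77.6 in PAGE4 cells with H2O2 but 5 and 2 reads with PBS, and did not pass without the H2O2 pair (edgeR adjusted p = 0.839). LUM was the fibroblast marker that fell, and COL1A1, the other one tested, had log2 differences of 0.52 and 0.48 and did not pass.

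A run of neighbouring genes of the HOXC cluster, which encodes homeodomain factors of body patterning, was lower in PAGE4 cells. HOXC10, at chr12:53985065-53990279, had normalized counts of 5769 and 3716 in vector cells and 1271 and 1552 in PAGE4 cells, and HOXC9 had 615 and 569 in vector cells and 305 and 282 in PAGE4 cells. Both PAGE4 libraries of each were below both vector libraries (edgeR adjusted p = 5.19e-12 and 0.000151). HOXC11, HOXC8 and HOXC6 fell with log2 differences of -0.72 and -1.20, of -2.06 and -0.56 and of -0.85 and -0.53. Without the PBS pair, HOXC11, HOXC8 and HOXC6 did not pass (edgeR adjusted p = 0.106, 0.213 and 0.134), nor did HOXC11 without the H2O2 pair (edgeR adjusted p = 0.391). HOXC12 and HOXC13 at one end of the cluster had differences between -0.30 and 0.0052, and HOXC4 at the other went from 582 to 291 and from 171 to 142 and did not pass (edgeR adjusted p = 0.0523). Of 24 tested HOX genes, 5 fell, all of them in this cluster, and HOXB13 alone rose. In the annotation the span of HOXC6 covers HOXC9 and HOXC8 and overlaps that of HOXC4, which covers HOXC5. How far the reads of these genes can be separated is therefore uncertain, and they are not independent members of the run.

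Metallothioneins, small proteins that bind zinc and copper and are induced by metals, included several genes that fell in PAGE4 cells. MT2A had normalized counts of 7030.1 and 9194 in vector cells and 4527 and 6237 in PAGE4 cells, MT1X had 812 and 1617 in vector cells and 325 and 1156 in PAGE4 cells and MT1F had 185 and 311 in vector cells and 50.3 and 92.1 in PAGE4 cells. With each treatment the PAGE4 library had the lower count, by 1.55-fold and 1.47-fold for MT2A and by 3.69-fold and 3.38-fold for MT1F. MT1E and MT1G fell as well, with log2 differences of -1.11 and -0.74 and of -0.86 and -0.69. MT1X and MT1G did not pass without the PBS pair (edgeR adjusted p = 0.113 and 0.0506). Near-identical members of this family can share reads, so the share of each gene is uncertain. The zinc exporter SLC30A1, fell with log2 differences of -0.05 in the PBS pair and -0.91 in the H2O2 pair and did not pass without the H2O2 pair (edgeR adjusted p = 0.895). SLC39A8, a zinc importer, rose with 0.23 and 0.52 and did not pass without the H2O2 pair either (edgeR adjusted p = 0.483). Of 19 tested metallothionein and zinc transport genes, 6 fell and 1 rose.

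Metallothionein promoters hold metal response elements, the short sites bound by the metal sensor MTF1. The 250 bases before the start of MT2A (chr16:56608334-56608583) and of MT1X (chr16:56682220-56682469) are shown because these genes fell together. Both lie on the plus strand, were taken from RefSeq on GRCh38.p14, and have in capitals every match to TGCNCNC, a loose form of the core of the element, on either strand.
MT2A: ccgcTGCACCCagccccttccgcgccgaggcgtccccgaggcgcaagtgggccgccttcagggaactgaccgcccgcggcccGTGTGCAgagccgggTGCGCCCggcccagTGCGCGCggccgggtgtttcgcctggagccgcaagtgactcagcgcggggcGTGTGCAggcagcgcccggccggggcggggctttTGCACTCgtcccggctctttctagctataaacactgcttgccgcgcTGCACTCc
MT1X: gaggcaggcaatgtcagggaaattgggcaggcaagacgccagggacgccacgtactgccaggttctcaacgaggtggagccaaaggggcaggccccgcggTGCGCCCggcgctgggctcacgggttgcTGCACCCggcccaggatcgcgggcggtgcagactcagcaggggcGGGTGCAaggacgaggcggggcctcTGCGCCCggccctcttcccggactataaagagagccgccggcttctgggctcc
MT2A has 7 matches and MT1X has 4. At least 1 match was found in 49.1% of the 35116 promoters of the table and at least 4 in 1.77%, and of 14 promoters of the metallothionein and zinc list that the table holds, 8 had at least 1. A match is a description of the letters and does not show that the site is used.

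Transporters of large neutral amino acids went both ways. SLC7A5, which encodes the LAT1 transporter, had normalized counts of 54030.1 with PBS and 47257 with H2O2 in vector cells, and 151744 and 115462 in PAGE4 cells, and its partner chain SLC3A2 had 13039 and 23564 in vector cells and 32741 and 33034 in PAGE4 cells. The PAGE4 libraries of SLC7A5 were 2.81-fold and 2.44-fold above vector cells, next to the rise of the related SLC7A8 given above (edgeR log2 difference 1.37, SE 0.092, adjusted p = 2.04e-13). SLC43A2, the LAT4 transporter, fell with log2 differences of -0.73 and -0.74 (edgeR adjusted p = 3.02e-05) and was named after its values were seen. SLC3A2 did not pass in DESeq2's Wald test (adjusted p = 0.168). Both SLC7A5 and SLC3A2 are on the list of ATF4 and unfolded protein response genes. Of 50 such genes tested, these 2 rose and 7 others fell, where 3.47% of all genes rose and 3.16% fell. CHAC1, a glutathione-degrading enzyme that ATF4 induces, had log2 differences of -0.66 and -0.89, and SESN2, a stress-induced regulator of mTORC1, went from 1067 to 933 and from 9519 to 4760.2. SESN2 did not pass without the H2O2 pair (edgeR adjusted p = 0.421).

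Several genes of lipid synthesis rose in PAGE4 cells. Of 26 tested genes of cholesterol synthesis, 8 rose and none fell, and 19 were higher in both pairs at any size, where 34.7% of all genes were. The median log2 difference of this list was 0.30 in the PBS pair and 0.18 in the H2O2 pair. INSIG1, a sterol-controlled regulator of the pathway, had 3960.5 and 2622 in vector cells and 6469 and 4055 in PAGE4 cells, and SREBF1, a master transcription factor of lipid synthesis, had 13612 and 5645 in vector cells and 17182 and 8894 in PAGE4 cells. FDFT1, squalene synthase, rose with log2 differences of 0.43 and 0.48. In fatty acid synthesis, FASN, the fatty acid synthase, rose from 142563 to 217740 and from 63036 to 106705, and SCD, the stearoyl-CoA desaturase, from 41062 to 71618 and from 30701 to 48669.7. The acyl-CoA synthetase genes ACSL5 and ACSL1 fell, ACSL1 with log2 differences of -0.60 and -0.64. SREBF1 did not pass without the H2O2 pair (edgeR adjusted p = 0.0621). A sterol response element, searched as TCACNCCAC on either strand, was found in 1 of the 19 promoters of the cholesterol list that the table holds and in 0.883% of all its promoters.

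Part of the cytosolic ribosomal protein genes rose by a small amount. Of 75 tested, 15 rose and none fell, and 58 were higher in both pairs at any size, where 34.7% of all genes were. The median log2 difference was 0.25 in the PBS pair and 0.12 in the H2O2 pair. RPS23 had normalized counts of 4122 and 4117 in vector cells and 6301 and 5388 in PAGE4 cells, while RPLP0, which did not pass, had 79199.6 and 76053 in vector cells and 90852 and 79634 in PAGE4 cells. None of the 75 changed by 1.5-fold in both pairs. Processed pseudogenes of these genes can take or give reads, so single values are uncertain. Of 15 tested entries of the mitochondrial genome, 4 fell and none rose. At any size 5 were lower in both pairs, near the 27.0% of all genes. The median log2 difference of the list was -0.29 in the PBS pair and 0.057 in the H2O2 pair. MT-ND1 and MT-ND2, subunits of complex I, had log2 differences of -0.54 and -0.60 and of -0.52 and -0.49, MT-ND3 had -0.62 and -0.63 and MT-ATP8 had -0.95 and -1.47. None of 76 nuclear genes of the respiratory chain and none of 34 proteasome genes passed the edgeR test.

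Genes of the luminal prostate and of androgen response went both ways: 9 of 40 tested rose and 6 fell. KLK2, a kallikrein protease, had normalized counts of 1979 and 533 in vector cells and 2673 and 794 in PAGE4 cells, and SLC45A3, prostein, had 3138 and 574 in vector cells and 4615 and 966 in PAGE4 cells. KLK2 did not pass when either pair was left out (edgeR adjusted p = 0.220 without the PBS pair and 0.140 without the H2O2 pair). UGT2B15, an enzyme that inactivates androgens, fell from 2076 to 320.3 and from 569.8 to 136, although its reads may be shared with close relatives. FOLH1, the prostate-specific membrane antigen PSMA, fell from 4419 to 1840.0 and from 2405 to 1574. FOXA1, a luminal transcription factor, had log2 differences of -0.16 and 0.093 and did not pass the edgeR test.

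Of 29 tested neuroendocrine and neuronal genes, 8 rose and 3 fell. ENO2, the neuronal enolase, had normalized counts of 3282 and 2249 in vector cells and 5475 and 3417 in PAGE4 cells, higher in PAGE4 cells within each treatment (edgeR adjusted p = 1.04e-05). FLRT2, an adhesion protein, and CNTNAP2, a cell adhesion protein of neurons, fell with log2 differences of -1.35 and -1.21 and of -1.05 and -0.99. Neither passed without the PBS pair (edgeR adjusted p = 0.0649 for FLRT2 and 0.0956 for CNTNAP2). In the BMP and TGF-beta pathway, 4 of 45 tested genes rose and 2 fell, against 3.47% and 3.16% of all genes. The ligand BMP2 had 759 and 1556 in vector cells and 362 and 529 in PAGE4 cells, and ID4, a target of BMP signals, had 1676 and 1432 in vector cells and 3693 and 3669 in PAGE4 cells. BMP2 was below vector cells in each treatment, and both ID4 libraries of PAGE4 cells were more than 2-fold above both vector libraries. Regulators of the Hippo pathway differed too: TEAD1 had log2 differences of 0.86 and 0.58 and TEAD3 had -0.87 and -0.90, and of 24 targets and members of that pathway 3 rose and 3 fell.

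The study singled out 11 genes linked to positive regulation of the MAPK cascade among those that differed after H2O2 in both lines. It chose them on these libraries and those of DU145, so their direction with H2O2 is not independent evidence. In both pairs together, 4 of the 11 were counted well enough to test, and BMP4 passed. BMP4 had 17 and 46 reads in the vector libraries, against 118 and 53 in the PAGE4 libraries (log2 2.93 and 0.65, edgeR adjusted p = 0.00865), and did not pass without the PBS pair (edgeR adjusted p = 0.391). F2R, the thrombin receptor, WNT5A and PELI2 had log2 differences of 0.16 and 1.12, of -0.046 and -1.02 and of -0.92 and -1.02, and did not pass (edgeR adjusted p = 0.415, 0.481 and 0.107). The other 7 had mean normalized counts under 50. Of these, CHRNA7, EPHA8, TBX1 and RASSF2 were lower in PAGE4 cells with PBS as well as with H2O2, whereas IGF2 had log2 differences of 2.13 in the PBS pair and -0.77 in the H2O2 pair, NOX1 had 1.06 and -0.94 and GHRL had 0.10 and -0.84. Among the genes for which the study lists primers, ACTA2, EFEMP1, FBLN1, FSTL1 and SOD1, FSTL1 fell (log2 -1.16 and -0.65, edgeR adjusted p = 0.0445) and did not pass without the PBS pair (edgeR adjusted p = 0.155). FBLN1 had -0.55 and -0.77 and missed the threshold (edgeR adjusted p = 0.115), but passed in the fit of all 8 libraries (edgeR adjusted p = 0.00254). In that fit ACTA2 was higher in PAGE4 cells, with a log2 difference of 0.81, and SOD1 had -0.0082. Neither passed there (edgeR adjusted p = 0.174 and 0.977) or in the main test.

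NRF2 target and heat shock genes that passed the test were mostly lower in PAGE4 cells. Of 37 tested NRF2 targets, which respond to oxidants, 6 fell and none rose in PAGE4 cells. GCLC, which makes the first step of glutathione synthesis, had normalized counts of 10107 and 7045 in vector cells and 6689 and 5358 in PAGE4 cells, and GCLM, its partner subunit, had log2 differences of -0.34 and -0.47. NQO1, a quinone reductase, had -0.65 and -0.22 and did not pass without the PBS pair (edgeR adjusted p = 0.151), and GCLM did not pass without the H2O2 pair (edgeR adjusted p = 0.0501). Of 39 heat shock genes, 5 fell and 2 rose, where 3.16% of all genes fell and 3.47% rose, so the share that rose was near that of all genes. HSPA6, an inducible HSP70, had 8 and 4 reads with PBS, and with H2O2 the vector library had 2156 and the PAGE4 library 20. DNAJB1, its cochaperone, had log2 differences of 0.025 in the PBS pair and -1.05 in the H2O2 pair, and HSPB1 had -0.26 and -0.49. Without the H2O2 pair, HSPA6, DNAJB1 and HSPB1 did not pass (edgeR adjusted p = 0.783, 0.993 and 0.0628). Of 39 tested p53 targets, 2 rose and 1 fell, near the 3.47% and 3.16% of all genes. The median log2 difference of this list was 0.18 in the PBS pair and -0.059 in the H2O2 pair. CDKN1A, the p53 target p21, had log2 differences of 0.30 and -0.021 and did not pass (edgeR adjusted p = 0.556). In mitosis, 2 of 45 tested genes fell, near the 3.16% of all genes, and 21 were lower in both pairs, where 27.0% of all genes were. UBE2C and AURKA fell with log2 differences of -0.21 and -0.55 and of -0.20 and -0.55, and MKI67 had 0.00076 and -0.26. Of 95 DNA repair genes, 2 rose, a smaller share than the 3.47% of all genes. These were PRKDC, with log2 differences of 0.22 and 0.38, and ATM, with 0.27 and 0.55. At any size, 47 of the 95 were higher in both pairs and 18 lower, where 34.7% and 27.0% of all genes were. The median log2 difference of the repair list was 0.083 in the PBS pair and 0.068 in the H2O2 pair. None of UBE2C, AURKA, PRKDC and ATM passed without the H2O2 pair (edgeR adjusted p = 0.336, 0.375, 0.334 and 0.415).

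**Figure D4:**
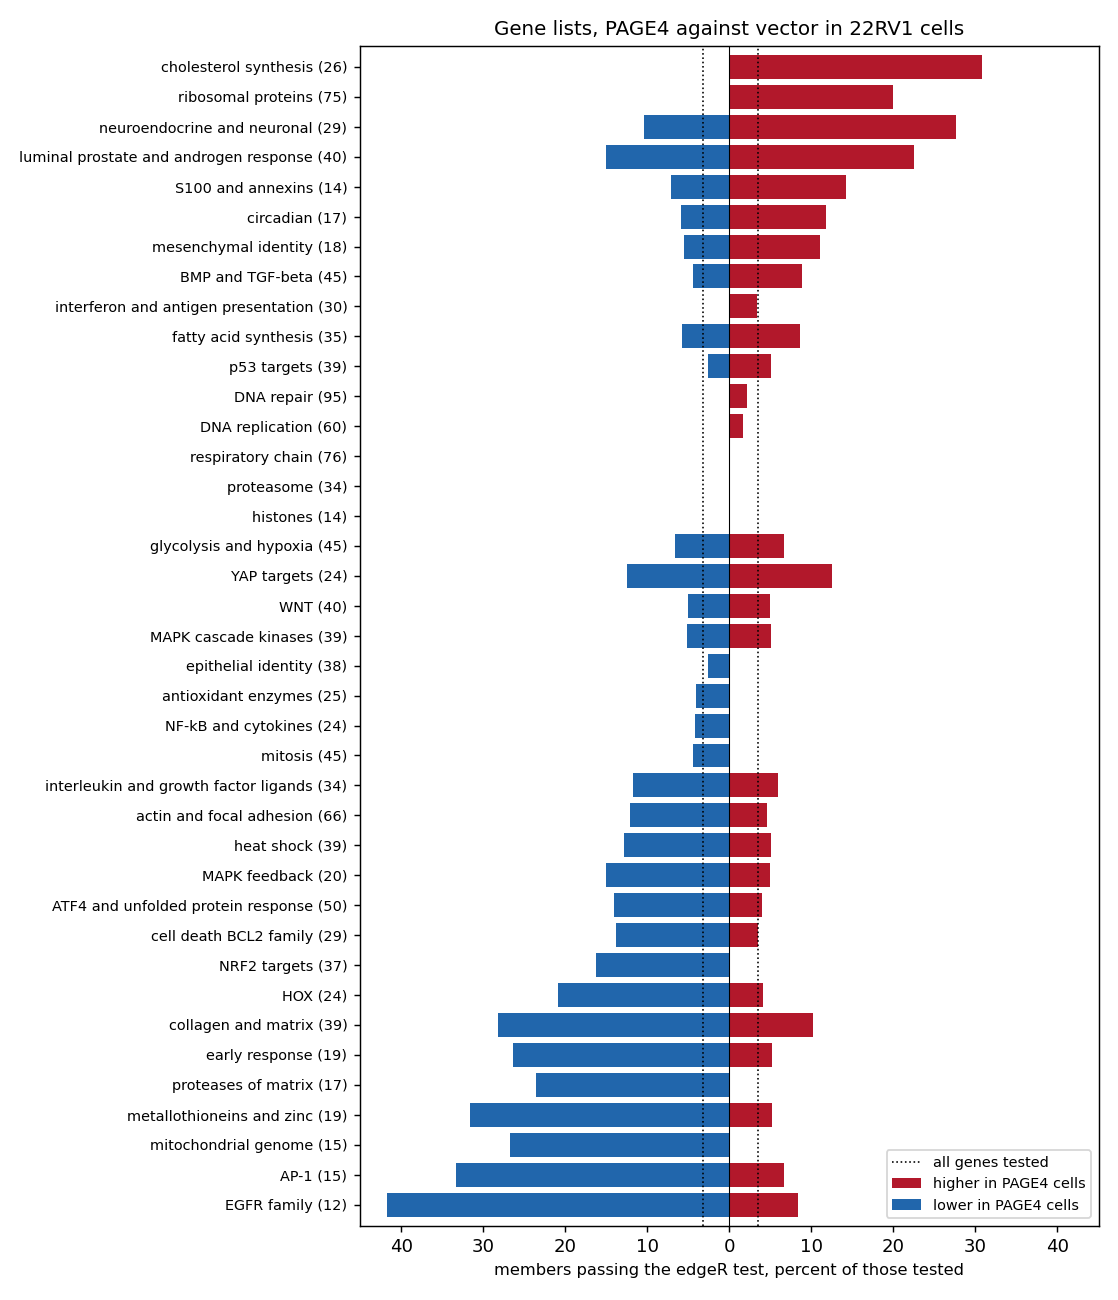
Share of the tested members of 39 gene lists that passed the edgeR test as higher (red, to the right) or lower (blue, to the left) in PAGE4 cells, with the number tested in brackets. Dotted lines mark the shares over all genes tested, 3.47% higher and 3.16% lower. Cholesterol synthesis and ribosomal protein genes passed only as higher, and EGFR family, AP-1 and metallothionein genes mostly as lower.

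The PAGE4 effect was compared between 22RV1 and DU145 cells. In the fit of all 8 libraries, the PAGE4 effect differed between the lines for 538 genes (3.68% of 14609), and 183 of the 374 DEGs of 22RV1 cells (48.9%) were among them. The DEGs were chosen on the 22RV1 libraries that also enter this test. Of the DEGs, 113 had a mean normalized count under 10 in DU145 cells, which leaves their effect there poorly measured. Of the 214 whose mean reached 50 there, the line difference passed for 157 and did not for 56, with PAGE4 itself left out. Of these 214, 11, PAGE4 among them, changed by more than 1.5-fold in both DU145 pairs in the same direction and 2 in the opposite direction, where 0.868% of 12322 genes counted in both lines passed that limit in either direction. The median of the mean log2 differences in DU145 cells was 0.01 for the 94 of these genes that were higher and for the 120 that were lower in 22RV1 cells. FLNA had log2 differences of 0.24 and 0.019 in the DU145 pairs, EGFR had 0.024 and -0.031, MT2A had 0.61 and 0.57 and SLC7A5 had 0.32 and -0.053, and all 4 differed between the lines in edgeR's test (adjusted p = 4.57e-09, 5.65e-08, 7.46e-07 and 3.42e-06). CNTNAP2 fell in DU145 cells as well, by log2 differences of -1.51 and -1.96, and its difference between the lines did not pass (edgeR adjusted p = 0.354). S1PR3 had -0.98 and -0.72 in DU145 cells, the same direction as in 22RV1 cells and smaller (edgeR adjusted p of the difference = 0.000116).

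**Figure D5:**
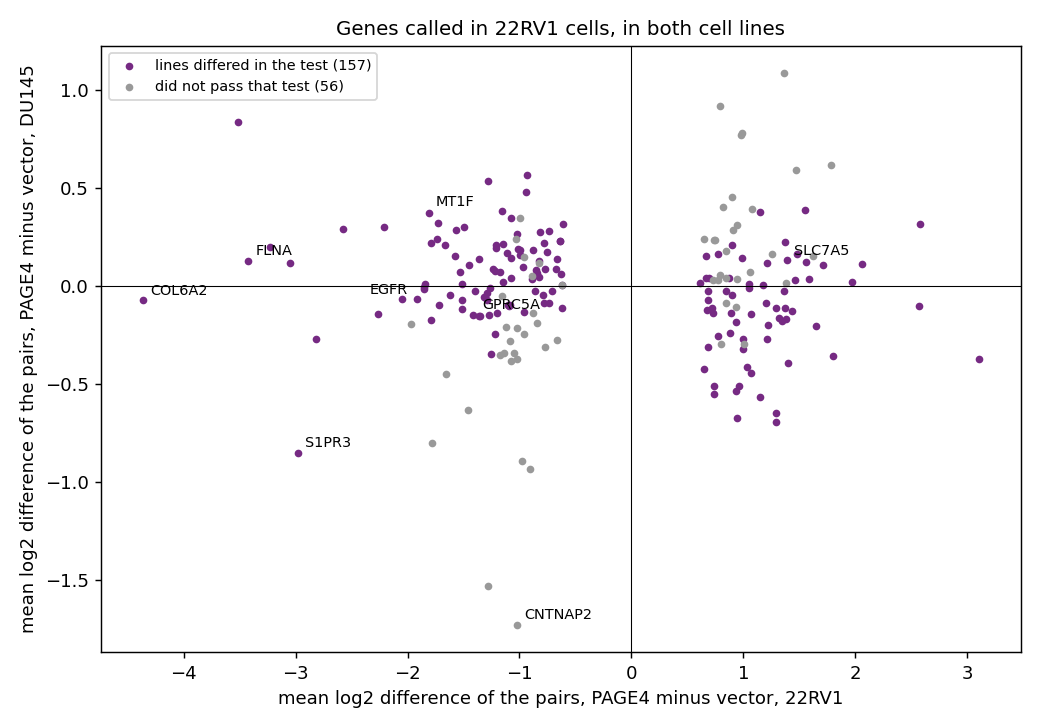
Mean log2 difference of PAGE4 minus vector over both pairs in 22RV1 cells (horizontal) and in DU145 cells (vertical) for the 213 DEGs of 22RV1 cells other than PAGE4 whose mean normalized count reached 50 in DU145 cells. Purple genes (157) had a tested difference between the lines and grey genes (56) did not pass that test. Most points lie near 0 on the DU145 axis, and CNTNAP2 and S1PR3 are among those that are lower in both lines.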

How the data were processed

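RNA-seq libraries of 22RV1 and DU145 cells were analysed, 4 of each line. Per the submitters' processing notes, the authors used HISAT2 2.1.0 and featureCounts 1.6.0 with GRCh38. The deposited tables hold 1 whole-number count for each gene and library, without normalization. Strand and multi-mapping settings are not given in the sources used here. RNA extraction is given as Trizol by the labels but as a column kit by the study's methods. Library size was the total count, and counting intervals are 95% Clopper-Pearson intervals of a library's share of reads.

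Samples were grouped by their labels. Genes with a mean of at least 50 DESeq2-normalized counts over the 4 22RV1 libraries were tested with edgeR 4.0.16 (TMM, quasi-likelihood, 1 residual degree of freedom) in R 4.3.3, and fold changes per pair used DESeq2 1.42.0 size factors and a pseudocount of 0.5. The line difference was tested over 8 libraries with the 4 pairs as blocks. Scripts were tested on simulated data. Named genes were PAGE4, the 12 highest and 12 lowest DEGs matched to GENCODE as protein-coding, the study's MAPK and primer genes, and up to 4 passing and 2 best-counted other members per list. EMD, ERBB3, JUND, TNC, COL5A1, MT2A, SLC30A1, SLC39A8, HOXC4, HOXC6, HOXB13, MFSD4, HMP19, SLC43A2, PLAU, IL6, KRT5, POSTN, TRHDE-AS1 and the entries of the closing section fall outside this rule and were chosen after their values were seen. The members and lists were chosen with earlier results of these data known. Positions and gene types are from GENCODE release 44, matched by symbol, which 12591 of the genes tested had, and 26 symbols altered to dates were kept as given. Alternatives were other size factors, count minimums, DESeq2, no block, all 8 libraries and left-out pairs, and list medians under TMM and total counts were added after seeing the data. Effects of H2O2, and the values of some genes that meet these rules, are not reported here.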

Additional observations from a re-analysis of the deposited data

Results flagged for a closer look

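The PAGE4 effect was measured in 2 cell lines, and edgeR's test of the difference between the effects (22RV1 minus DU145, on the log2 scale) passed for 538 of 14609 genes at adjusted p under 0.05. The genes named above that passed this test are given here with that difference. A negative value says that the effect was lower in 22RV1 cells.

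Among the lowest genes, the differences were COL6A2 -4.33, ACSL5 -4.19, AGR2 -3.30, HSPA6 -6.86, SNAI2 -3.65, SERTAD4 -2.97, KCNAB2 -3.55 and UGT2B15 -6.88. Among the highest, they were MFSD4 3.45, SLC7A8 3.03, KIF26B 2.26, CYP26B1 2.71 and KIT 7.05. Where a gene had few reads in DU145 cells, as KIT and UGT2B15 did, the size of the difference depends on the small count the fit adds and is no estimate of the effect. AGR2, ACSL5 and SLC7A8 had mean normalized counts of 5.45, 8.20 and 8.41 in DU145 cells, so their differences are poorly measured too.

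For FLNA and cytoskeletal or Hippo genes the differences were FLNA -3.58, EMD -0.87, FLNC 0.58, TEAD1 0.73 and TEAD3 -0.95. For the EGFR family they were EGFR -1.88, AREG -1.09 and ERBB3 0.62. For the MAPK cascade and its feedback genes they were RPS6KA2 -2.06, MAP2K1 -0.86, MAPK11 0.67, SPRY4 0.92, SPRY1 -1.11 and DUSP4 -0.79. The kinase gene HIPK2 gave -0.63, and GPRC5A and KRT7, from the list that marks DU145 cells, gave -1.44 and 0.65. For AP-1 and early response genes they were FOSL1 -2.66, FOSB -1.83, IER5L -1.76 and KLF9 0.99, and for cell surface receptors and ligands S1PR3 -2.15, F2RL1 -1.27, EFNB2 -2.42 and EPHB2 -1.64. For matrix genes they were HSPG2 -1.04, LAMA3 -1.44 and TIMP2 -1.81, and for HOXC genes HOXC8 -1.30, HOXC9 -1.23 and HOXC10 -1.66.

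Metallothioneins gave MT1F -2.22, MT1E -1.52, MT1X -1.31 and MT2A -1.22. Amino acid and ATF4 genes gave SLC43A2 -1.04, SLC7A5 1.23, SLC3A2 0.64, CHAC1 -1.05 and SESN2 -0.82, and lipid genes gave INSIG1 0.49, SREBF1 0.53, SCD 0.84, FASN 0.68 and ACSL1 -0.66. The neuronal gene ENO2 gave 0.61 and the luminal gene SLC45A3 0.65. Stress genes gave GCLC -0.50, DNAJB1 -0.79 and HSPB1 -0.68, cell cycle and repair genes PRKDC 0.44, UBE2C -0.54 and AURKA -0.58, and mitochondrial genes MT-ATP8 -1.46, MT-ND1 -0.44, MT-ND2 -0.41 and MT-ND3 -0.71.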

How the results depend on the processing

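Each line has 1 library per condition, the labels give no replicate numbers, and the treatment block is what pairs the libraries. No paired analysis was possible because same-numbered replicates do not exist, beyond that block. Without it, edgeR called 0 genes (337 at an unadjusted p under 0.05, with 2630 at that limit when the block was kept), 0 higher and 0 lower, and left 0 DEGs, 0 higher and 0 lower. DESeq2's Wald test called 433 genes, 224 higher and 209 lower, and left 126 lower DEGs. Without 1 of the 22RV1 pairs, in the fit of all 8 libraries, the calls ranged from 714 to 1042, the higher from 295 to 496, the lower from 419 to 546, the DEGs from 251 to 272, the higher DEGs from 116 to 119 and the lower from 135 to 153. Genes over 1.5-fold in both pairs numbered 1473 (584 higher, 889 lower) at a mean normalized count of at least 10 and 4900 (1889 higher, 3011 lower) with no minimum, where few reads set the fold. They numbered 180 (87 higher, 93 lower) at a fold over 2, and 174 were lower at a mean of at least 100. The difference between the lines was called for 335 genes by DESeq2, and for 211 to 818 when 1 of the 4 pairs was left out, with 211 without the DU145 PBS pair and 818 without the 22RV1 PBS pair. The causes of these shifts were not tested. The log2 difference of EGR1 was -1.37 without the PBS pair and turned to 0.081 without the H2O2 pair, and that of AL592188.3 was 11.37 and -1.88e-11, since it had 0 reads in the PBS pair. Other size factors, edgeR's own filter, total counts and a pseudocount of 1 kept every count within 1.5 times the reported one. Of the 136 named genes tested, 106 kept their side of the threshold with DESeq2, 105 without the H2O2 pair and 117 without the PBS pair. The 30 that lost the call in DESeq2 were HSPA6, AREG, HBEGF, SPRY1, MAF, FOSB, JUND, EGR1, S1PR5, F2RL1, LUM, HSPG2, COL5A1, TIMP2, HOXC11, SLC30A1, SLC39A8, SLC3A2, SESN2, KLK2, BMP4, FSTL1, NQO1, GCLM, DNAJB1, PRKDC, ATM, UBE2C, AURKA and AL592188.3. JUND, COL5A1 and PRKDC also lost it in the fit of all 8 libraries (adjusted p = 0.0506, 0.0614 and 0.0568).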

Other observations

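Entries with clone-based names that were not matched to GENCODE gave some large values, and those below were chosen after their values were seen. AC099684.1 had 1542 and 329 reads in vector cells and 12 and 8 in PAGE4 cells, a normalized count 114-fold lower with PBS and 30.1-fold lower with H2O2 (edgeR log2 difference -6.21). In DU145 cells it had at most 4 reads. AL592188.3 passed the edgeR test although it had 340 reads in PAGE4 cells with H2O2 and 0 in the other 3 libraries of 22RV1, so it differed in 1 pair only. In DU145 cells it had 9 and 13 reads in the PAGE4 libraries and 0 in both vector libraries.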
